A study of Caenorhabditis elegans with 2 samples.

Results

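Genes of the splicing machinery were examined for peaks of the tagged protein ZTF-28, whose gene symbol stands for zinc finger transcription factor, in Caenorhabditis elegans. The set held 46 of the 19973 nuclear protein-coding genes: every gene whose symbol starts with snr-, lsm-, rsp-, prp-, sftb- or snrp-, together with uaf-1, uaf-2 and hrpa-1. The rule reads symbols and no binding value. The assay was chromatin immunoprecipitation with an antibody against GFP, read out by sequencing (ChIP-seq). There was 1 group of 2 biological replicates, both of strain RW12281, allele st12281[ztf-28 ::TY1::EGFP::3xFLAG] V, a CRISPR insertion of the tag into ztf-28. Both were whole young adults at 63 hours, grown on from larvae starved at the L1 stage after bleaching. Neither a second genotype nor a control library was analysed here, and whole worms mix germ line and somatic nuclei, so a peak cannot be assigned to a tissue.

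The spliceosome removes introns from pre-mRNA. It is built from small nuclear RNAs (snRNAs), each packed into a particle (snRNP) by a ring of Sm proteins or, for the U6 snRNA, by a ring of Sm-like (LSm) proteins. The Prp factors, named for pre-mRNA processing mutants of yeast, and the SF3b subunits join, remodel or proofread these particles. SR proteins, which carry stretches rich in arginine and serine, and the U2AF subunits recognise exons and the 3′ splice site. In worms the same machinery also joins a spliced leader to the 5′ end of many mRNAs, so an annotated start can be a trans-splice site that lies downstream of the true start.

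Sequences are printed because they are reproducibly bound stretches at these members, with summits at or within 500 bp upstream of a neighbouring gene's start. All are read on the plus strand of WBcel235 (ce11), 5′ to 3′, from the RefSeq genome. The stretch at snr-1 is chrIV:17087483-17087782, the one between rsp-2 and rsp-1 is chrII:11453068-11453367 and the one at snr-4 is chrV:11979968-11980267. In the snr-1 and rsp-1/rsp-2 stretches, capitals mark the word TGCGTC. In the snr-4 stretch, capitals mark the annotated snRNA gene C52E4.8.
snr-1: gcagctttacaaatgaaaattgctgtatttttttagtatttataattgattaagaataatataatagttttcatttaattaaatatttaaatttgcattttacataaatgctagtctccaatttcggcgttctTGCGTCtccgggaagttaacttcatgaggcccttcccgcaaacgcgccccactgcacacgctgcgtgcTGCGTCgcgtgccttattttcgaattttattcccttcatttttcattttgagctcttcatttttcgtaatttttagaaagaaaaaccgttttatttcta
rsp-1/rsp-2: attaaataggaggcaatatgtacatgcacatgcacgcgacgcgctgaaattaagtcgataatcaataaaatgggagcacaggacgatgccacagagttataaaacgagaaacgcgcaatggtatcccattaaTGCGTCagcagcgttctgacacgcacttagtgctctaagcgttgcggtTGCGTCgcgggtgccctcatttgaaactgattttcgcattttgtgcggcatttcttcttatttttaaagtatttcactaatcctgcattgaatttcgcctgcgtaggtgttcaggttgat
snr-4: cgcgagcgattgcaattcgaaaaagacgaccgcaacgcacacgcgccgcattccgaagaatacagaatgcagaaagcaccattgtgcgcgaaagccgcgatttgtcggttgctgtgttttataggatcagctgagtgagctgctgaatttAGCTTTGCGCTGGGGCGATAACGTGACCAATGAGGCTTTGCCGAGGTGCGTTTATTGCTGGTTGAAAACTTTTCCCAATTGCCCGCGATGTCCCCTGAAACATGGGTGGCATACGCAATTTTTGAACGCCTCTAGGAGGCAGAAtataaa

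Reproducible summits lay in the start windows of 6 of the 46 splicing genes (13.0%, 95% Wilson interval 6.12 to 25.7), whereas 2.99% of all protein-coding genes were bound by the same rule. A gene was called bound when any of its annotated transcript starts had a summit of the conservative peak list within 500 bp on the upstream side or 200 bp on the downstream side. That list, from the authors' comparison of the replicates, holds 1086 peaks. Its threshold is on the IDR, the irreproducible discovery rate. A high IDR can mark a weak peak as well as one whose ranks in the replicates diverge. At the SF3b gene sftb-2, for instance, signals of 13.7 and 13.6 in the replicates went with an IDR of 0.469. The bound genes were the Sm protein genes snr-4, snr-1 and snr-2, the SR protein genes rsp-1 and rsp-2, and the Prp factor gene prp-40. They rest on 5 summits, because rsp-1 and rsp-2 share 1. No reproducible summit was found at the LSm, SF3b, U2AF and other snRNP protein genes or at hrpa-1. For the counts of 0 among 7 LSm and 5 other snRNP protein genes, 3 divided by the number of genes gives rough upper limits of 42.9% and 60%. These limits are not Wilson bounds and are loose for so few genes. The interval covers counting of genes only, the read depth is unknown, and no test between conditions was possible.

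The share of splicing genes with a peak was also counted among ranked peaks at other limits. Among the 103094 ranked peaks, from which the conservative list was drawn, a peak with an IDR of at most 0.05 lay in the windows of 13 of 46 members (28.3%, Wilson interval 17.3 to 42.5), against 5.32% of all protein-coding genes. These 13 genes rest on 11 summits, whereas this interval and those below treat genes as independent. At an IDR of at most 0.1 the count was 15 of 46 (32.6%, 20.9 to 47.0), against 7.59%. At an IDR of at most 0.001 it was 2 of 46 (4.35%, 1.20 to 14.5), namely snr-1 and snr-4, against 1.14%. Any ranked peak at all was found at 39 of 46 (84.8%, 71.8 to 92.4), against 62.7%. The remaining 7, namely snr-5, snr-7, prp-3, prp-4, prp-6, prp-18 and prp-19, had no ranked peak in a window. Among genes with a ranked peak, the strongest had a median signal of 42.5 at members (n = 39) and 30.6 over all protein-coding genes (n = 12523). Of the 39 members, 29 lay above the middle of that distribution. The signal is the authors' value per peak, and its scale was not given in the sources used here.

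**Figure D1:**
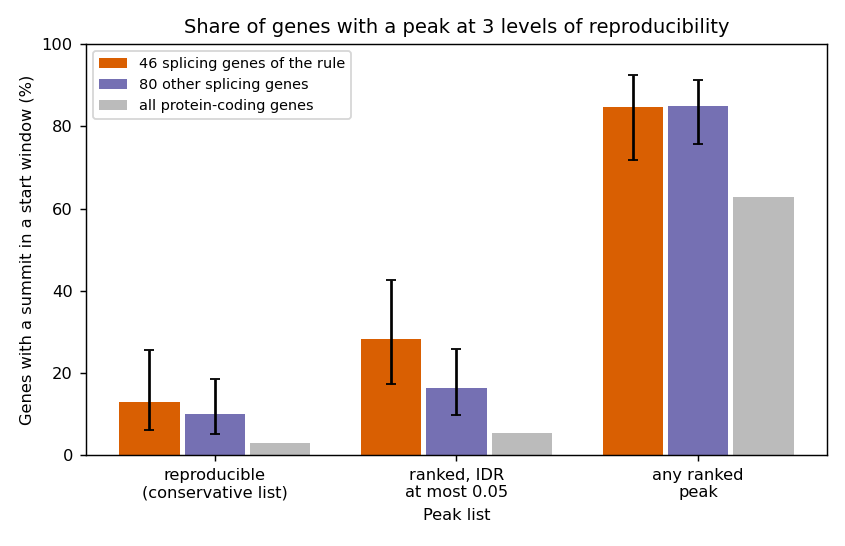
Share of genes with a summit in a start window (y axis, percent) in the conservative list, among ranked peaks with an IDR of at most 0.05 and among all ranked peaks, for 46 splicing genes, 80 other splicing genes and all 19973 protein-coding genes. Error bars are 95% Wilson intervals, which treat genes as independent although some share a summit. The bars of splicing genes stand at 13.0%, 28.3% and 84.8%, above the grey bars of 2.99%, 5.32% and 62.7%.

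Of the 7 Sm protein genes 3 were bound, and snr-4 and snr-1 had the highest signals of all members. The summit at snr-4, which encodes the homologue of SmD2, had a pooled signal of 198.1, with 69.0 in replicate 1 and 126.1 in replicate 2. It stood at rank 60 of the 1086 reproducible peaks, and its value in replicate 2 was 1.83 times that in replicate 1. The summit at snr-1, which encodes SmD3, had a pooled signal of 167.5, with 50.6 and 114.6 in replicates 1 and 2, and stood at rank 111. Its ratio of replicate 2 to replicate 1, 2.26, was the highest of all 1086 reproducible peaks, whose median ratio was 1.05 (quartiles 0.857 and 1.25). The summit at snr-2, the gene for SmB, was weaker and more even, with a pooled signal of 86.7 and 49.4 and 44.4 in the replicates (rank 719). Of these 3 summits, the one at snr-4 overlapped a peak in the thresholded list of each replicate alone, the one at snr-1 did so for replicate 2 only, and the one at snr-2 for neither.

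The other Sm genes lay below the threshold or had no peak. At snr-3, the SmD1 gene, the strongest ranked peak had a pooled signal of 65.0 (31.1 and 33.9 in the replicates) and an IDR of 0.0284. At snr-6, the SmE gene, it had 54.1 (17.5 and 32.2) and an IDR of 0.237. The SmF and SmG genes, snr-5 and snr-7, had no ranked peak in a window; a divergent gene starts 290 bp from snr-7. The proteins of 1 ring were thus spread over the whole range, from the strongest member peak to none.

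At snr-4 the summit coincided with the start of an snRNA gene. Its position, 11980118 on chromosome V, is the annotated start of C52E4.8 and lies at -395 bp from the start of snr-4 on the opposite strand. The peak covers all 144 bp of the snRNA gene, and the window of the non-coding RNA gene C52E4.14 also holds the summit, at 159 bp. Apart from snr-4, no protein-coding window holds it. The Ensembl annotation gives C52E4.8 the name T11F9.15, which it also gives to a separate gene at 11478148 to 11478291 on chromosome V. The copies are identical in all 144 bases but share 46 of the 150 bases upstream. The second copy had a ranked peak at -27 bp with a pooled signal of 68.1 (24.6 and 40.6 in the replicates) and an IDR of 0.0543. How reads inside the identical 144 bases were divided between the copies was not tested. When peaks in windows of tRNA, snoRNA, snRNA, rRNA or microRNA genes were left out, snr-4 was lost. That left 5 of 46 members bound, against 2.68% of all protein-coding genes.

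**Figure D2:**
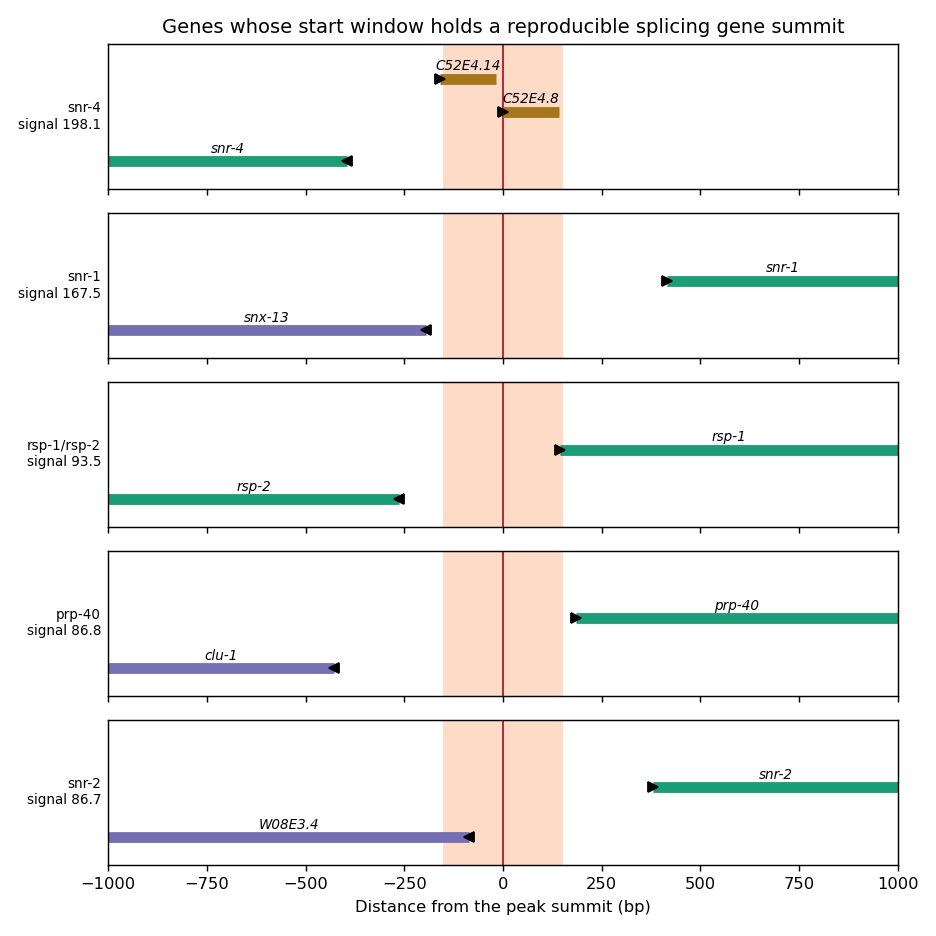
Genes (bars, black arrowheads at their starts pointing in the direction of transcription) whose windows hold each of the 5 reproducible member summits, by distance from the summit (x axis, bp). Green bars are members, purple bars other protein-coding genes and brown bars non-coding genes, and shading is the 300 bp peak; in every panel a second gene starts on the other side of the summit or at it.

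The SR protein genes were bound at 1 locus, between rsp-1 and rsp-2. These genes diverge from starts 407 bp apart, and the summit lay at -144 bp from rsp-1 and -263 bp from rsp-2, in intergenic DNA. The pooled signal was 93.5, with 54.9 in replicate 1 and 47.0 in replicate 2 (IDR 0.00170, rank 578). It lay close to the median of 94.8 of all reproducible peaks, and the thresholded list of neither replicate alone held an overlapping peak. A second divergent pair joins rsp-5 to the Sm gene snr-3, with starts 404 bp apart. Its summit lay at -43 bp from rsp-5 and -361 bp from snr-3, and is the peak of signal 65.0 given above, which did not reach the conservative list. The gene rsp-6, whose product is of the SRp20 type, came nearest to the threshold. Its peak at -155 bp had a pooled signal of 70.9, 32.5 and 44.7 in the replicates, and an IDR of 0.0110, where the list ends at 0.01.

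Peaks at the remaining SR genes were weaker. At rsp-4, which encodes the homologue of SC35, the strongest ranked peak had a pooled signal of 54.4 (22.8 and 29.2 in the replicates). It lay at -449 bp, while the gap to the upstream gene ndx-6 on the same strand is -7 bp, an overlap. At rsp-3, the homologue of SF2/ASF, the strongest ranked peak had 25.4 (10.3 and 19.9), the lowest of the 8 SR genes. The values at rsp-7 and rsp-8, the latter a homologue of the splicing regulator Tra2, were 34.0 and 39.4. All 8 genes had a ranked peak, with a median of 59.7.

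Of the 13 Prp genes only prp-40 was bound. Its yeast counterpart is a component of the U1 snRNP that contacts the branch point binding protein. The summit lay at -186 bp from prp-40 and at -429 bp from the divergent gene clu-1, with a pooled signal of 86.8 and 33.3 and 55.2 in the replicates (IDR 0.00688, rank 715). In the authors' other thresholded list of the series, prp-40 was no longer bound and rsp-6 was. The count stayed at 6, against 3.00% of all protein-coding genes. The next highest, prp-31, a U4/U6 snRNP protein gene, had a pooled signal of 70.5 (25.4 and 41.0) and an IDR of 0.0453 at -180 bp. Signals were 35.2 at prp-8, the gene of the large U5 snRNP protein at the catalytic centre, and 16.2 at prp-17, the lowest of the 8 Prp genes with a ranked peak. The genes prp-3, prp-4, prp-6, prp-18 and prp-19, which together encode U4/U6 and U5 snRNP proteins, a factor of the second splicing step and a ubiquitin ligase of the spliceosome, had none.

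Among the other classes, no peak reached the conservative list, which ends at an IDR of 0.01. The genes of the large and small U2AF subunits, uaf-1 and uaf-2, had pooled signals of 64.7 (37.1 and 27.9 in the replicates, IDR 0.0398) and 69.7 (49.2 and 24.4, IDR 0.0579). The uaf-2 summit lay downstream of a start, at 148 bp, and the snoRNA gene Y116A8C.50 shared it. At hrpa-1, an hnRNP A1 type gene, the values were 48.9 (32.8 and 30.1) and 0.0384. Of the LSm genes lsm-8 was highest, at 67.9 (36.6 and 32.2, IDR 0.0211, -471 bp), followed by lsm-6 at 62.0 (35.2 and 21.4, IDR 0.136), while lsm-4 was lowest at 9.37. The gene sqd-1, on the same strand, ends 104 bp upstream of lsm-8, so the lsm-8 summit lies within sqd-1. The product of lsm-8 belongs to the nuclear ring on U6, and the product of lsm-1, with a signal of 26.0, to the cytoplasmic ring that acts in mRNA decay. The SF3b genes spanned 61.0 at sftb-6 to 6.24 at sftb-1, the gene of the largest subunit and the lowest value of all 39 members with a peak. The 5 other snRNP protein genes lay between 24.7 (snrp-27) and 45.4 (snrp-40.1), with 26.0 at the helicase gene snrp-200.

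**Figure D3:**
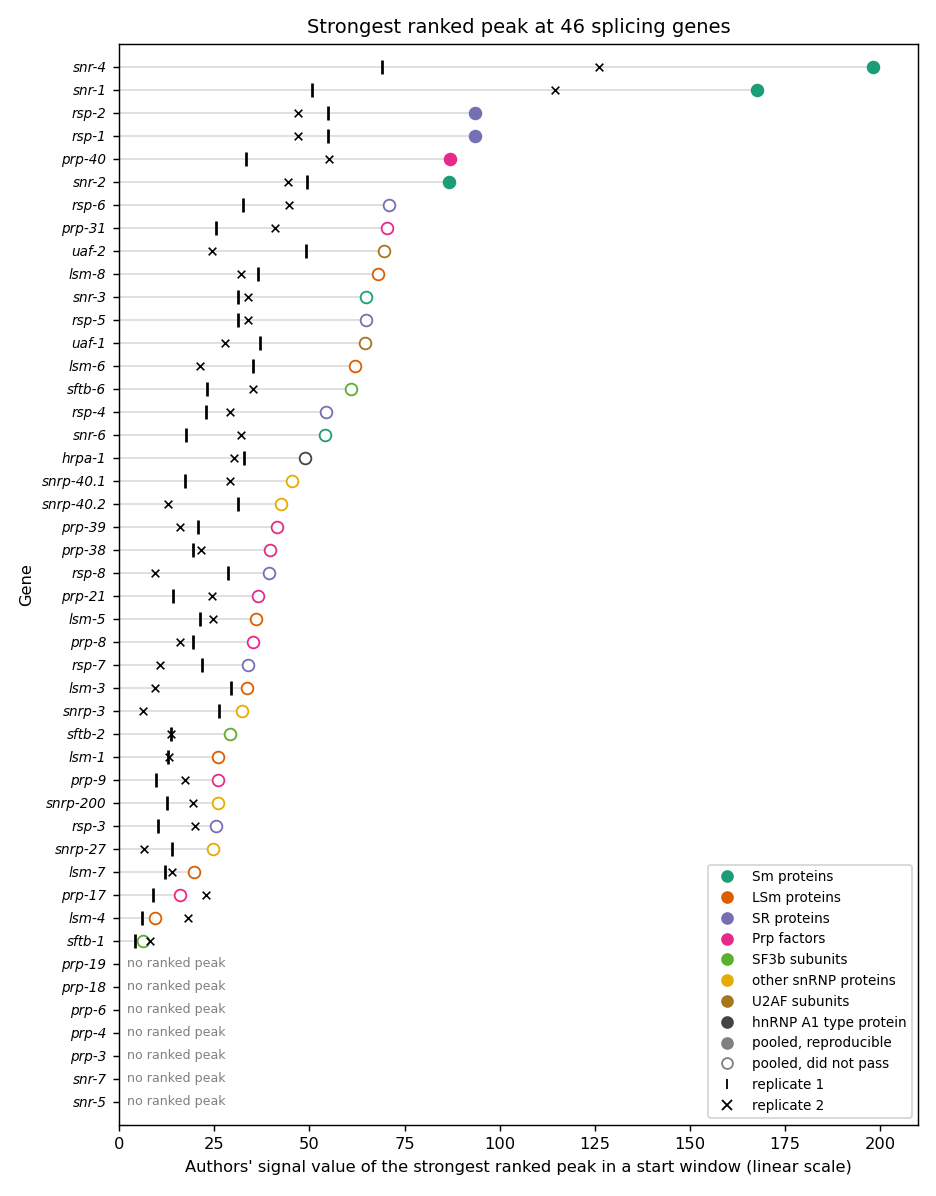
Authors' signal value (x axis, linear scale) of the strongest ranked peak in a start window of each of the 46 genes (y axis, ordered by value). Circles are pooled values, filled where the peak is reproducible and coloured by class, and ticks and crosses are replicates 1 and 2; filled circles run from 86.7 at snr-2 to 198.1 at snr-4, open circles from 6.24 to 70.9, and 7 genes have no ranked peak.

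The 5 reproducible summits had pooled signals of 86.7 to 198.1 (median 93.5). Their values ran from 33.3 to 69.0 in replicate 1 and from 44.4 to 126.1 in replicate 2. The median pooled signal was 94.8 over all 1086 reproducible peaks and 102.6 over the 480 with summits in protein-coding windows. The strongest ranked peaks of the 33 members that were not bound ran from 6.24 to 70.9 (median 39.4), with 4.21 to 49.2 in replicate 1 and 6.42 to 44.7 in replicate 2. The pooled ranges did not overlap, whereas those of each replicate did. The conservative list decided which members count as bound, and the gap holds for these members only. Over all 1086 reproducible peaks, pooled signals ran from 2.31 to 549.8. Replicate 2 was above replicate 1 at 3 of the 5 bound summits and at 18 of the 32 distinct peaks of the others, and at 57.4% of all reproducible peaks. In the thresholded list of replicate 1 alone, 1 member was bound (snr-4), against 1.17% of all protein-coding genes, and in that of replicate 2 alone, 2 were (snr-1 and snr-4), against 1.36%.

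**Figure D4:**
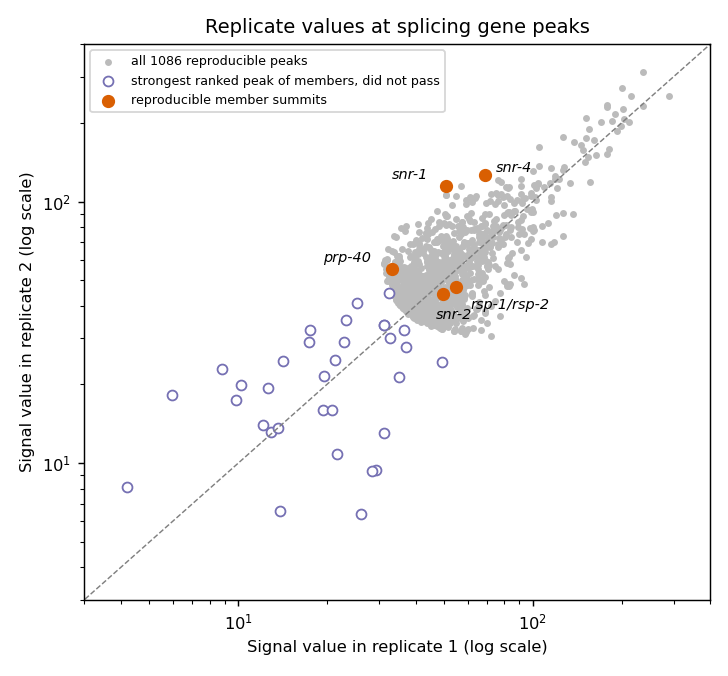
Signal values in replicate 1 (x axis) and replicate 2 (y axis), both on log scales, at the 5 reproducible member summits (orange), the strongest ranked peaks of the 33 members that were not bound (open) and all 1086 reproducible peaks (grey). The dashed line marks equal values; snr-1, with 50.6 and 114.6, has the highest ratio of replicate 2 to replicate 1 of the reproducible peaks.

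All 5 reproducible summits lay upstream of the members and in the window of at least 1 other gene. Offsets ran from -144 to -416 bp over the 6 pairs of gene and summit, with a median of -322 bp. Measured to the nearest protein-coding start, whether or not of a member, the 5 summits lay at a median of -186 bp, close to the -176.5 bp of all 480 reproducible summits in protein-coding windows. A window of 250 bp upstream and 100 bp downstream kept only rsp-1 and prp-40, against 1.84% of all protein-coding genes. The summits at snr-1, snr-2, rsp-1/rsp-2 and prp-40 were each in windows of 2 protein-coding genes that diverge from each other. Of the 480 reproducible summits in protein-coding windows, 25% were upstream of such a pair on opposite strands and 44.2% were in windows of more than 1 gene of any class. The partner of snr-1 is snx-13, named as a sorting nexin gene, with starts 611 bp apart, and the summit lay nearer to snx-13, at -195 bp, than to snr-1, at -416 bp. The partner of snr-2 is W08E3.4, annotated by RefSeq as a major sperm protein, at -85 bp against -381 bp. Where each summit was given only to the nearest protein-coding start, 3 members were left, namely snr-4, rsp-1 and prp-40, against 2.3% of all protein-coding genes.

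**Figure D5:**
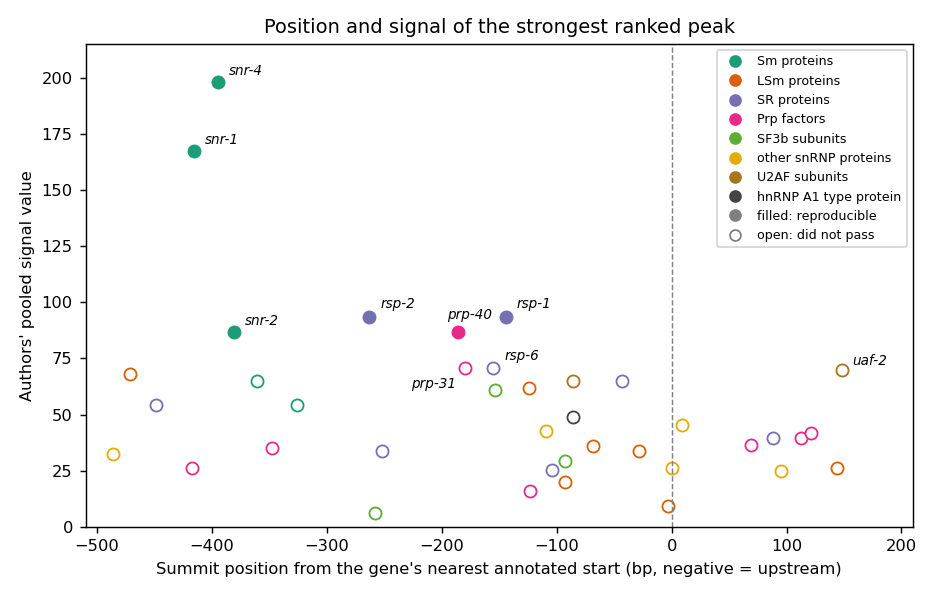
Position of the strongest ranked peak from the nearest annotated start of each member (x axis, bp, negative upstream) against the authors' pooled signal (y axis, linear). Filled points are reproducible summits, all between -416 and -144 bp; open points, which did not pass, spread from -486 to 148 bp.

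The arrangement of genes around each member's start was counted as well. A divergent protein-coding start within 1000 bp, with no gene close upstream on the same strand, was found at 26 of 46 members (56.5%) and at 17.5% of all protein-coding genes. Of these 26, 5 were bound (19.2%), whereas 8.44% of all genes in that arrangement were. The bound genes rsp-1 and rsp-2 are each other's divergent partner and share a summit. In this arrangement a summit can count for both genes. Another 13 members followed the end of a gene on the same strand by at most 500 bp, as genes of worm operons do. None of the 13 was bound, and 2.41% of all such genes were. The rough upper limit for the 13, as 3 divided by the number of genes, is 23.1%. A gene inside an operon is transcribed from the promoter of the leading gene, so the leading gene of each run was also examined, a step added after the data were seen. It carried a reproducible summit for 5 of the 13 members (38.5%), against 6.40% of the 3736 protein-coding genes with a close gene upstream. For other splicing genes, from the list described further on, the count was 3 of 28 (10.7%). Operons themselves are not annotated in the sources used here.

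The leading genes with a reproducible summit were of several kinds. For lsm-8 it was sqd-1, the gene of an RNA-binding protein, with a signal of 216.3 at -336 bp. For prp-38 it was plrg-1, whose homologue is a subunit of the spliceosomal Prp19 complex, with 132.5 at -226 bp. For prp-3 it was smrd-1 (125.2, -244 bp), for rsp-6 the shugoshin gene sgo-1 (114.4, -382 bp) and for prp-39 the HMG-CoA synthase gene hmgs-1 (96.4, -73 bp). Of these 5 members, prp-3 had no ranked peak in its own window, and lsm-8 and rsp-6 had the peaks given above. Reproducible summits outside the windows lay within 3000 bp of a start of 10 of the 40 members that were not bound (25%), against 5.58% of all protein-coding genes that were not bound. These were 9 summits, because snr-3 and rsp-5 share 1. They include the summits at sqd-1, plrg-1 and hmgs-1 given above, so this count and that of the leading genes are not independent. The sqd-1 summit is also counted among the other splicing genes below.

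Splicing genes outside the rule were examined in the same way, and their share was not tested against that of the members. Of 85 symbols in a list of other splicing factors and regulators, 80 were found. Of these 80, 8 were bound (10%, Wilson interval 5.15 to 18.5), against 2.99% of all protein-coding genes. The strongest was mog-4, which encodes a DEAH-box helicase of the spliceosome, with a pooled signal of 542.3 and 236.4 and 313.0 in the replicates at -272 bp. It was followed by sqd-1 (216.3, with 100.5 and 115.7) and smn-1, the homologue of the survival motor neuron gene, whose product loads Sm proteins onto snRNAs (189.1, with 118.2 and 69.8). The smn-1 summit lay at -162 bp and nearer to the divergent kinesin gene klp-16, at -54 bp. It also lay in the annotated microRNA gene cel-mir-4932, 69 bp from its start. With peaks at small RNA genes left out, smn-1 was lost. That left 7 of the 80 bound, against 2.68% of all protein-coding genes. The hnRNP K gene hrpk-1 held 2 summits, of 139.7 and 92.8. Others were mog-3 (104.7), which RefSeq describes as a homologue of the splicing factor CWC25, the SR protein kinase gene spk-1 (91.1), rsr-1 (90.4) and syf-2 (81.7). As at the Sm and SR genes, the summits at spk-1, rsr-1 and syf-2 were shared with a divergent gene. Ranked peaks with an IDR of at most 0.05 lay at 13 of the 80 (16.3%), against 5.32% of all protein-coding genes. Any ranked peak lay at 68 (85%), against 62.7%.

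Words of letters within 100 bp of the summits were counted on both strands. The word TTTCAG, the worm consensus at the 3′ splice site, occurred at 3 of 5 member summits, at 27.1% of 480 reproducible summits in protein-coding windows, at 33.5% of 102008 ranked peaks that did not pass and at 29.3% of windows of the same length centred 176 bp before the outermost start of every protein-coding gene. TATAAA occurred at 3 of 5, against 12.1%, 15.4% and 25.0%. TTCCCGC occurred at 1 of 5, against 8.75%, 2.73% and 2.33%. The words CACGTG (found at 5.42% of the 480 summits), GAGAGA (at 20.8%), GTTCGA (at 11.5%) and GGGCGG (at 13.1%) were not found at the 5. The word TGCGTC was chosen after the sequences at member summits had been seen. It occurred at 3 of 5 member summits. It began at -17 bp from the summit at snr-1 and -18 bp at rsp-1/rsp-2, on the plus strand each time, and again at 51 bp in snr-1 and 30 bp in rsp-1/rsp-2. It was found at 17.5% of the 480 summits, 5.42% of the ranked peaks that did not pass and 6.26% of the windows before genes. With 5 summits, these counts describe the members and test nothing. The median GC content of the windows was 44.3% at member summits and 43.8% at the 480.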

How the data were processed

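Anti-GFP ChIP-seq of 2 replicates of whole worms was used as deposited peak lists. The authors' lists give a signal per peak, a scaled IDR score and −log10 of the global IDR, in assembly ce11 per the labels. The aligner, the peak caller, the scale of the signal and the read depth were not stated in the sources used here. The signal deposited in columns 15 and 19 equalled that of a peak overlapping it in replicate 1's ranked list at 1077, and in that of replicate 2 at 1080, of 1086 reproducible peaks, and never that of the opposite replicate. For the strongest peaks of the 33 members that were not bound these counts were 27 and 26. Genes and starts came from Ensembl release 115 and bases from the RefSeq genome, whose chromosome lengths hold every peak.

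Summits were assigned to start windows and counted. The background was the same count over all nuclear protein-coding genes. No test was made, because there is 1 group. The members and gene lists were chosen with earlier results of these data known. Genes were named by rule: every bound gene, the 12 strongest ranked peaks of others, and at least the highest and lowest of each class. The genes lsm-1, rsp-7, rsp-8, prp-8, sftb-2 and snrp-200 were named beyond these, after their values were seen. The genes prp-38 and prp-39 were named for the leading genes of their runs. A run of genes was built from gaps of at most 500 bp or overlaps of at most 50 bp. Window assignment was tested on simulated data, and 12 alternatives to the list, window or assignment were tried. Python 3.11.15, NumPy 2.4.6, SciPy 1.17.1 and matplotlib 3.10.9 were used. The sequence of the bound stretch at prp-40 is not reported here.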

Additional observations from a re-analysis of the deposited data

How the results depend on the processing

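No paired analysis was possible because there is 1 group, so no contrast to block. The list, the window or the assignment was changed in 12 alternatives. The series' other thresholded list, any overlap of the peak, the outermost start and the return of 45 absent passing peaks left 6 members bound. Other splicing genes bound under these numbered 8 to 9. In turn, 3.00%, 3.44%, 2.76% and 2.99% of all protein-coding genes were bound. With the thresholded list of 1 replicate in place of both, the bound members numbered 1 to 2, on as many distinct summits with a median signal of 69.0 to 120.3 on the replicates' own scale, and the other splicing genes 4 to 6. The window of 250 bp and 100 bp gave 2 members on 2 summits (median 90.2) and 3 other genes. Ranked peaks with an IDR of at most 0.05 gave 13 members on 11 summits (median 70.9) and 13 other genes, and those at most 0.001 gave 2 members on 2 summits (median 182.8) and 4 other genes. Giving each summit to the nearest protein-coding start left 3 members on 3 summits and 5 other genes. The median was 130.5 with a window of 1000 bp upstream, which added prp-19, and 90.2 without peaks at small RNA genes. Under these, 3.87% and 2.68% of all protein-coding genes were bound. The fewer genes under a stricter list follow from its construction, since the share of all protein-coding genes fell as well, to 1.14% at 0.001. Depth is unknown, so weaker binding below the threshold cannot be told apart from none.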

Other observations

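The letters of the worm splice acceptor were looked for before annotated starts. The letters TTTCAG stand directly before an annotated start at 20 of 46 members (43.5%), 36 of 80 other splicing genes (45%) and 16.8% of all protein-coding genes. Among the bound members these were snr-4, rsp-1, rsp-2 and prp-40. This count was added after the data were seen.

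Of the 9 reproducible summits outside the windows but within 3000 bp of a member that was not bound, several stood at or in a neighbouring gene. The strongest was at K10D2.5, which diverges from prp-19, the gene of a spliceosomal ubiquitin ligase. Its signal was 365.9 (170.7 and 201.8 in the replicates), at -633 bp from prp-19 and -42 bp from K10D2.5. At rsp-6 a summit of signal 85.6 (51.2 and 40.5) lay beyond the gene, in the window of the protease gene imp-3. At hrpa-1 a summit of 89.6 (47.8 and 36.8) lay 1521 bp downstream of a start, in a coding exon of F42A6.6. The shared summit of 56.3 (41.0 and 38.2) lay at 1218 bp from rsp-5 in intergenic DNA, in no start window.

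The word TGCGTC was also present at the rsp-6 peak that narrowly missed the threshold, at -17 bp on the minus strand. Of the 6 distinct member peaks with an IDR above 0.01 and at most 0.05, it was the 1 that held the word.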
